A study of Mus musculus with 8 samples.

Results

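The Cdk inhibitor genes were followed in sorted lung epithelial cells as 7 genes, chosen by the gene symbol of the array platform: Cdkn1a, Cdkn1b and Cdkn1c of the Cip/Kip family, and Cdkn2a, Cdkn2b, Cdkn2c and Cdkn2d of the INK4 family. They are 7 of 24306 named genes and are read by 13 of 43941 named probes, and 5 of them have more than 1 probe. On GRCm38.p6 Cdkn2a, Cdkn2b and Cdkn2c lie on chromosome 4, Cdkn1b on chromosome 6, Cdkn1c on chromosome 7, Cdkn2d on chromosome 9 and Cdkn1a on chromosome 17. Every probe is given, and the tests took for each gene its brightest probe, by mean over the 8 arrays. Cells carried a tdTomato reporter in the Sftpc lineage and were sorted by flow cytometry into Tom-low cells, called IAAPs (injury activated alveolar progenitors), and Tom-high cells, the mature AT2s. The study asked how each population responds when Fgfr2b, an FGF receptor of alveolar epithelium, is deleted. Experimental mice carried Sftpc CreERT2/+, the reporter tdTomato flox/flox and the target allele Fgfr2b flox/flox, and gave E-IAAPs and E-AT2s on days 4, 7 and 14 of tamoxifen water. Control mice carried Sftpc CreERT2/+ and tdTomato flox/flox with wild-type Fgfr2b, and gave C-IAAPs and C-AT2s on day 7. All mice were 9 to 12 weeks old, carried Cre under the Sftpc promoter and received tamoxifen at 1 mg/ml. Deletion could thus occur only in cells using that promoter. The paper reports that IAAPs of experimental mice in part escaped deletion, with the mutated locus no longer detected in them under longer tamoxifen. In E-AT2s it reports a rising mutated share, and it describes the Cre driver as leaky. E-IAAPs are therefore named by genotype here, and their days may differ in the share of deleted cells. The part of such differences in the results was not tested. Each population, genotype and day has 1 array.

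Cdk inhibitors are small proteins that hold back the kinases of the cell cycle. The INK4 proteins p16, p15, p18 and p19 bind Cdk4 and Cdk6 and keep them from D-type cyclins, whereas the Cip/Kip proteins p21, p27 and p57 bind cyclin-Cdk complexes more broadly and act most strongly on Cdk2. Held kinases leave the retinoblastoma family unphosphorylated, and E2F target genes then stay off. In lung epithelium p21 and p16 are followed mainly as marks of DNA damage and senescence, and p27 as a mark of resting cells.

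The values were log2 array signals after quantile normalization by the authors. No detection call comes with them, so a floor was set on each array at the 95th percentile of 1415 sensory receptor genes, which lung cells do not use. It was 6.46, 6.91 and 7.28 on the E-IAAP arrays of days 4, 7 and 14, and 7.03, 7.05 and 6.65 on the E-AT2 arrays of the same days. The C-IAAP array stood apart with a floor of 8.68, whereas that of the C-AT2 array was 6.94. Only 26.5% of genes lay above the floor on the C-IAAP array, against 40.8% to 46.4% on the other 7. Across genes, Pearson's r of that array with the others was 0.845 to 0.876, against 0.915 to 0.971 among the others. Every comparison with C-IAAPs therefore rests on 1 array with a higher background, and the part of that background in the results was not tested. All 12 AT2 cell markers lay above the floor on each array. The medians of 8 leukocyte markers were 11.84 to 12.21 on E-IAAP arrays, 6.47 to 7.5 on E-AT2 arrays, 11.14 on the C-IAAP array and 6.75 on the C-AT2 array, and 7 of the 8 rose in E-IAAPs relative to E-AT2s. Leukocyte RNA therefore moves with population in each IAAP to AT2 comparison, and its part in the inhibitor values was not tested. Other markers moved with genotype among IAAPs. The medians of 12 alveolar macrophage markers were 11.64, 11.39 and 11.75 on E-IAAP arrays and 9.12 on the C-IAAP array, against 5.92 to 7.30 on E-AT2 arrays and 5.77 on the C-AT2 array. Of the 12, 11 rose in E-IAAPs relative to E-AT2s and 6 rose in E-IAAPs relative to C-IAAPs, and 11 or 12 lay above the floor on each E-IAAP array, against 7 on the C-IAAP array. The medians of 8 AT1 cell markers were 8.28 to 9.10 on E-IAAP arrays and 10.47 in C-IAAPs. Rtkn2, Akap5 and Clic5, 3 of these markers, passed as lower in E-IAAPs than in C-IAAPs. These markers move with the E-IAAP to C-IAAP comparison in which Cdkn1b and Cdkn2b passed, and their part in those calls was not tested. The platform probe of Fgfr2 read 11.83, 11.39 and 10.87 on E-IAAP arrays, 12.10, 11.95 and 11.68 on E-AT2 arrays, 11.72 on the C-IAAP array and 12.45 on the C-AT2 array. Whether that probe covers the deleted exon is not given in the sources used here, so it does not check the deletion. In sorted bulk samples, fewer cells of a type and less RNA per cell cannot be told apart.

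Of the 7 genes, 2 lay clearly above the floor (by more than 0.5 on the log2 scale) on all 8 arrays, Cdkn1b and Cdkn2d. Cdkn2c did so on 7 arrays, with the C-IAAP array as the exception. Cdkn1a and Cdkn1c lay around the floor, clearly above it on 2 arrays each. Cdkn2a and Cdkn2b lay below it on all 8 arrays with both of their probes.

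**Figure D1:**
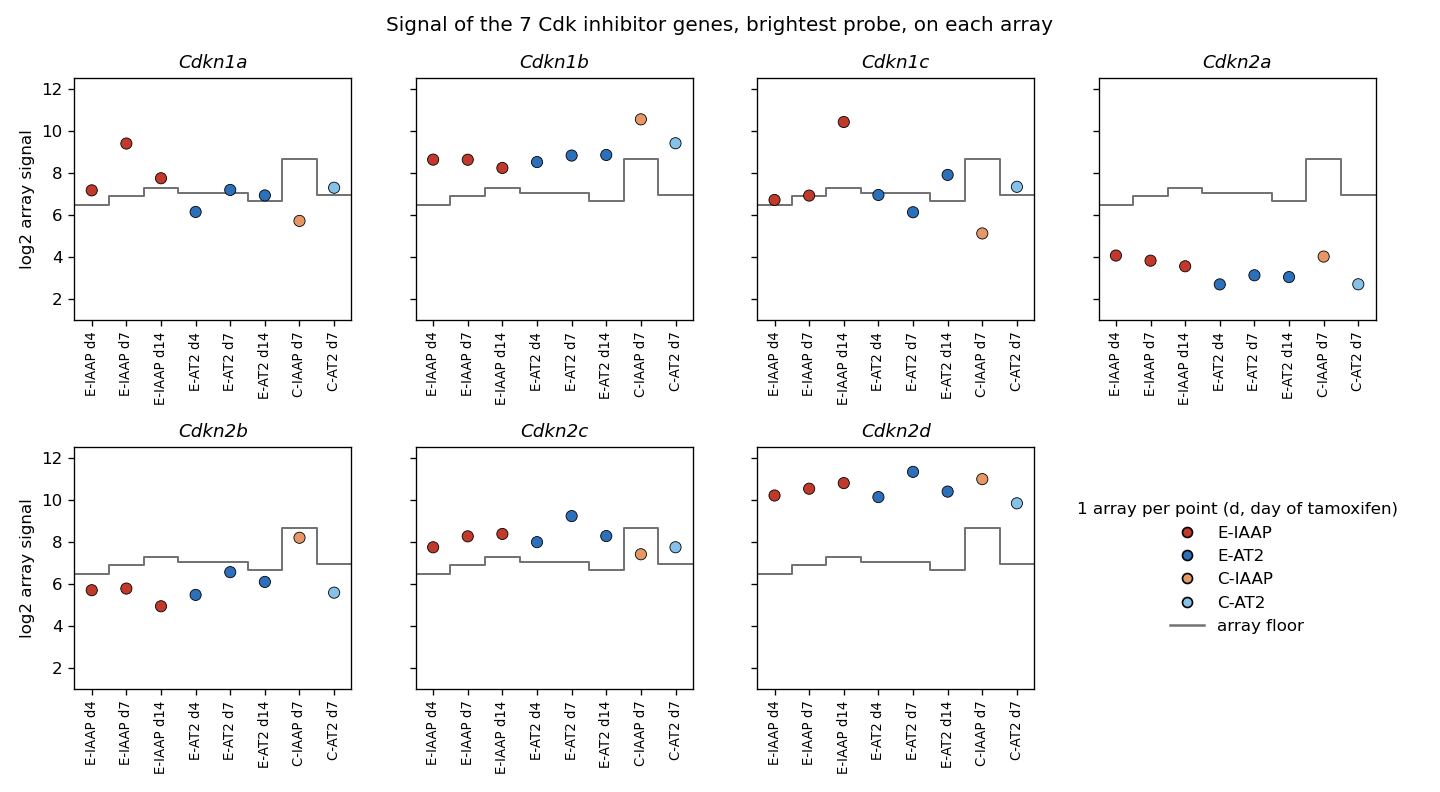
Log2 array signal of the brightest probe of each of the 7 genes (points, 1 array each) in E-IAAPs and E-AT2s on days 4, 7 and 14 and in C-IAAPs and C-AT2s on day 7, with the floor of each array as a grey line. Cdkn1b and Cdkn2d lie above the line on all 8 arrays, and Cdkn2a and Cdkn2b below it on all 8.

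The upstream windows of Cdkn1a and Cdkn1b are shown because the differences between genotypes that passed at signals above the floor in 1 or both genotypes fell on probes of these genes. Cdkn1a has a pair of annotated starts and its 3 probes carry accessions of different transcripts, which the tables do not assign to a start. The sequences are the 250 bases before each start from RefSeq on GRCm38.p6, on the strand of the gene, which is plus for both. They lie at chr17:29090729-29090978 and chr17:29093519-29093768 for Cdkn1a, and at chr6:134920151-134920400 for Cdkn1b. Capitals mark matches, on either strand, to ACATGT, the core of a p53 half-site. They also mark GGGCGG, the GC box, and the CCAAT box.
Cdkn1a start 1: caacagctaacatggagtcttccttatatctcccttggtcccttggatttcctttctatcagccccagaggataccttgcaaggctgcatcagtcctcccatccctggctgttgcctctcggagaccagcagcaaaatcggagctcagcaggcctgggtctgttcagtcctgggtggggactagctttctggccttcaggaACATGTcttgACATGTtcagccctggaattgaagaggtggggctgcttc
Cdkn1a start 2: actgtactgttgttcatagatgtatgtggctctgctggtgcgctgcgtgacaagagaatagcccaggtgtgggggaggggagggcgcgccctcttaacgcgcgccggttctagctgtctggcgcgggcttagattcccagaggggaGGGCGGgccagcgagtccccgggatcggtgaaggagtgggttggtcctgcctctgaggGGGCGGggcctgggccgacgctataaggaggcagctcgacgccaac
Cdkn1b: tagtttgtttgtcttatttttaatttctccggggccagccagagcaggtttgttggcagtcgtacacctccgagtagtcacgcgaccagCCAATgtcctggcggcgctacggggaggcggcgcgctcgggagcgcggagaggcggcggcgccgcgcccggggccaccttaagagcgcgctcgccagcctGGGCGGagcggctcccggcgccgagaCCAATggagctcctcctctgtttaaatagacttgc
The window of Cdkn1a start 1 holds ACATGT 2 times, at 49 to 44 and 39 to 34 bases before the start. Of 32851 mouse promoter windows of this length, 4.58% hold ACATGT and 0.247% hold it 2 or more times. Start 2 of Cdkn1a has GGGCGG 2 times. The Cdkn1b window has GGGCGG 1 time and CCAAT 2 times. GGGCGG occurs in 32.7% of windows and CCAAT in 33.8%. The marked matches do not overlap, and each is a match of letters only. Searches for TATAAA, found in 12.4% of windows, and for the forkhead core TGTTTAC, found in 3.17%, gave no match in these 3 windows.

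Among the Cip/Kip genes, Cdkn1b (p27, a brake on Cdk2 that is removed by ubiquitination when cells enter the cycle) was lower in E-IAAPs than in C-IAAPs. Its used probe, 23917, read 8.63 on day 4, 8.63 on day 7 and 8.23 on day 14 in E-IAAPs, and 8.52, 8.83 and 8.85 in E-AT2s on those days, as log2 signals. C-IAAPs had 10.55 and C-AT2s 9.41. All 6 experimental arrays lay below both control arrays, with a gap of 0.56 between the highest experimental and the lowest control signal. Such a separation was seen for 5.76% of all genes, and among the 7 members for Cdkn1b alone. E-IAAPs averaged 8.50 ± 0.23 (SD, n = 3 days), which is 4.15-fold below C-IAAPs (limma log2 difference -2.05, standard error 0.36, adjusted p = 0.0125). All 3 E-IAAP arrays were set against the same C-IAAP array of day 7. That array has the highest floor, and its signal stood 1.87 above it. E-IAAP signals stood 2.17, 1.71 and 0.95 above their own floors on days 4, 7 and 14. The part of the higher C-IAAP background in the 4.15-fold difference was not tested. With the day as a term in the fit the log2 difference was -1.94 and the adjusted p = 0.0757. E-AT2s averaged 8.73 ± 0.19 (SD, n = 3 days), and their log2 difference from C-AT2s did not pass the test (-0.68, 95% interval -1.53 to 0.17, adjusted p = 0.851). Experimental against control cells over both populations, a comparison chosen after the values had been seen, gave -1.37 (standard error 0.25, adjusted p = 0.0315), where 6.32% of all genes passed. Without any single experimental array its adjusted p was 0.0511 to 0.0678.

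The second probe of Cdkn1b, 7407, was closer to the floor. It read 7.21, 6.76 and 6.27 in E-IAAPs, 7.24, 7.51 and 7.13 in E-AT2s, 7.66 in C-IAAPs and 8.15 in C-AT2s. The 6 experimental signals again lay below both controls, by 0.15 at the nearest. The limma log2 differences were -0.91 for E-IAAPs against C-IAAPs (adjusted p = 0.198) and -0.86 for E-AT2s against C-AT2s (adjusted p = 0.843), so neither passed with this probe. Between populations, Cdkn1b differed by -0.23 in E-IAAPs against E-AT2s (95% interval -0.97 to 0.51, adjusted p = 0.773) and by 1.14 in C-IAAPs against C-AT2s (0.10 to 2.18, adjusted p = 0.128). In order of level with probe 23917, C-IAAPs came first, then C-AT2s, E-AT2s and E-IAAPs, and no neighbours in that order differed past the threshold. The interaction of population and genotype was -1.37 (standard error 0.51, adjusted p = 0.166).

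**Figure D2:**
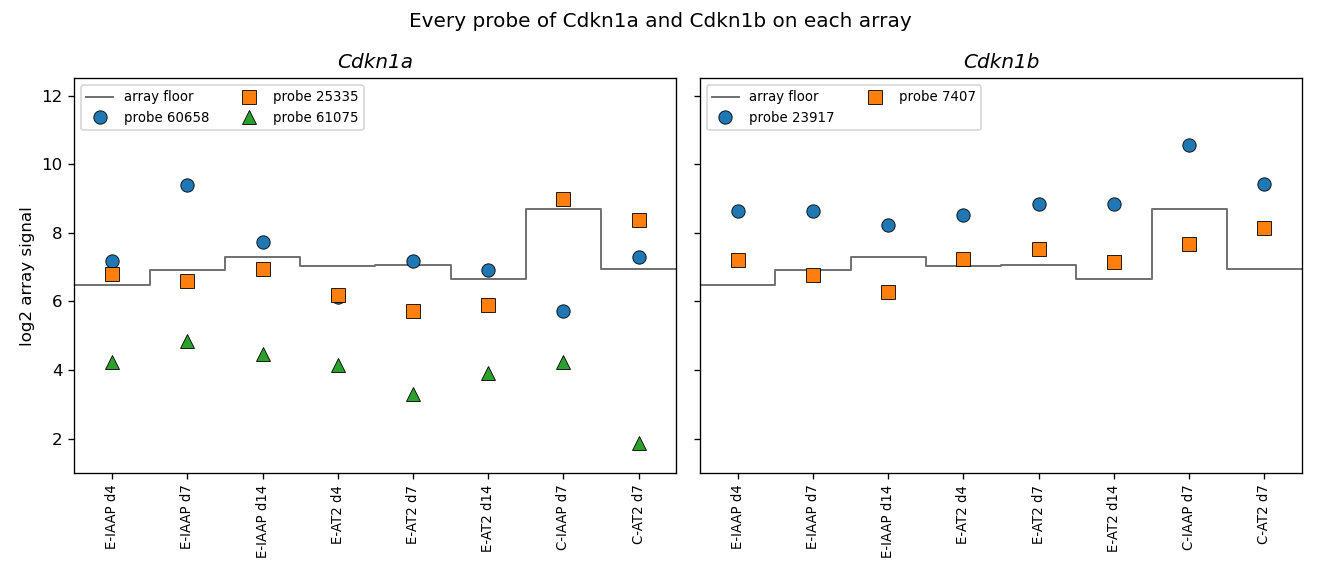
Log2 array signal of all 3 probes of Cdkn1a and both probes of Cdkn1b on each array, with the floor of each array as a grey line. Both Cdkn1b probes and Cdkn1a probe 25335 are higher on the 2 control arrays than on any experimental array, whereas Cdkn1a probe 60658 is highest in E-IAAPs on day 7 and lowest in C-IAAPs. The C-IAAP signal of Cdkn1b probe 7407 lies below the floor of its array.

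Cdkn1a encodes p21, a direct target of p53 that arrests cells after DNA damage, and its probes gave opposite directions. With the used probe, 60658, log2 signals were 7.17, 9.40 and 7.74 in E-IAAPs on days 4, 7 and 14, and 6.14, 7.19 and 6.93 in E-AT2s on the same days. The C-IAAP array had 5.71, far under its floor, and the C-AT2 array 7.29. E-IAAPs on day 7 thus had the highest signal and were 1 of 2 arrays, with E-IAAPs on day 4, clearly above the floor. E-IAAPs were above E-AT2s on each day, by 1.03, 2.21 and 0.82 on the log2 scale. The means were 8.10 ± 1.16 in E-IAAPs and 6.75 ± 0.55 in E-AT2s (SD, n = 3 days each), a limma log2 difference of 1.35 that did not pass after adjustment (standard error 0.37, unadjusted p = 0.0167, adjusted p = 0.308). Against C-IAAPs the log2 difference of E-IAAPs was 2.39 (95% interval 0.37 to 4.41, adjusted p = 0.0999). The E-IAAP mean lay under the floor of the C-IAAP array, so no fold is given.

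Probe 25335 of Cdkn1a read 6.81, 6.59 and 6.94 in E-IAAPs, 6.19, 5.72 and 5.89 in E-AT2s, 8.98 in C-IAAPs and 8.37 in C-AT2s. It was above the floor on both control arrays and on 1 of 6 experimental arrays, E-IAAPs of day 4. Of these only the C-AT2 signal was clearly above it, and the C-IAAP signal was near it, above by 0.30. All 6 experimental signals lay below both controls, by at least 1.43, a separation seen for 5.76% of all genes with their used probes. The log2 difference of E-IAAPs from C-IAAPs was -2.20 (standard error 0.36, adjusted p = 0.0102), opposite in sign to that of probe 60658. E-AT2s were at least 2.76-fold lower than C-AT2s with this probe, counting from the floor of the E-AT2 arrays, but the log2 difference of -2.44 did not pass after adjustment (unadjusted p = 0.00027, adjusted p = 0.168). Over both populations, experimental cells differed from controls by -2.32 (limma standard error 0.25, adjusted p = 0.00989). That comparison was chosen after the values had been seen, and 6.32% of all genes passed it with their used probes. In the comparisons with controls, probe 25335 was fitted only without a day term and with all 8 arrays kept. How far its calls depend on these choices was not tested. For E-IAAPs against E-AT2s the sign was the same with every probe, at 0.84 with probe 25335 and 0.73 with probe 61075 (adjusted p = 0.353 and 0.514).

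The third probe, 61075, lay below the floor on all 8 arrays. Its log2 signals were 4.23, 4.85 and 4.48 in E-IAAPs, 4.16, 3.29 and 3.91 in E-AT2s, 4.24 in C-IAAPs and 1.86 in C-AT2s. The C-IAAP to C-AT2 log2 difference of 2.38 passed the test with it (adjusted p = 0.0374), whereas probe 60658 gave -1.58 (adjusted p = 0.346) and probe 25335 gave 0.61 (adjusted p = 0.385). For Cdkn1a the direction between genotypes thus depends on the probe, and why the probes differ was not tested. With probe 60658 the order was E-IAAPs, C-AT2s, E-AT2s and C-IAAPs. Of the neighbours in it only E-AT2s and C-AT2s were compared, and they did not pass (-0.54, 95% interval -2.56 to 1.48). The limma interaction was 2.93 (95% interval 0.07 to 5.79, adjusted p = 0.204). All 3 E-IAAP arrays lay above the C-IAAP array of day 7, whose signal was below its floor. All 3 E-AT2 arrays lay below the C-AT2 array of day 7, whose signal was near its floor. How many of all genes show this pattern was not counted, so it does not set Cdkn1a apart.

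Cdkn1c, which encodes p57, an imprinted inhibitor known for holding differentiated cells out of the cycle, was high on 1 array. Log2 signals of its single probe, 32522, were 6.71, 6.92 and 10.42 in E-IAAPs on days 4, 7 and 14, and 6.95, 6.12 and 7.90 in E-AT2s. C-IAAPs had 5.12 and C-AT2s 7.34. E-IAAPs of day 14 stood 5.74-fold above the next array, E-AT2s of day 14, and a lead of more than 4-fold on that array was seen for 0.893% of all genes. Day 14 exceeded day 4 in both populations, by 3.71 in E-IAAPs and 0.96 in E-AT2s on the log2 scale. The limma log2 difference of day 14 against day 4 was 2.33 (standard error 0.71, unadjusted p = 0.023) and did not pass (adjusted p = 0.924), and 0.0% of all genes passed that comparison, with 1178 at an unadjusted p under 0.05. E-IAAPs averaged 8.02 ± 2.09 and E-AT2s 6.99 ± 0.89 (SD, n = 3 days each), a log2 difference of 1.03 (adjusted p = 0.545), and it was 1.66, 1.14 and 0.28 without day 4, day 7 and day 14. Against C-IAAPs the limma log2 difference of E-IAAPs was 2.90, with a 95% interval from -0.52 to 6.32 (adjusted p = 0.209). The C-IAAP signal and the E-IAAP mean both lay under the floor of the C-IAAP array, so no fold is given. The order was E-IAAPs, C-AT2s, E-AT2s and C-IAAPs. Of these neighbours only E-AT2s and C-AT2s were compared, and they did not pass.

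Ciliated cell markers were high on the same array. The median log2 signal of 8 such markers was 12.06 in E-IAAPs on day 14, against 7.99 and 8.36 in E-IAAPs on days 4 and 7, 3.31 to 4.57 in E-AT2s, 8.12 in C-IAAPs and 5.87 in C-AT2s. All 8 were above the floor on that array, against 2 to 5 on each of the others. Foxj1, the defining regulator of motile cilia, read 12.62 there and 2.03 to 8.68 elsewhere. Club cell markers had their highest median, 14.53, on that array as well. The part of these cells in the Cdkn1c signal was not tested.

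**Figure D3:**
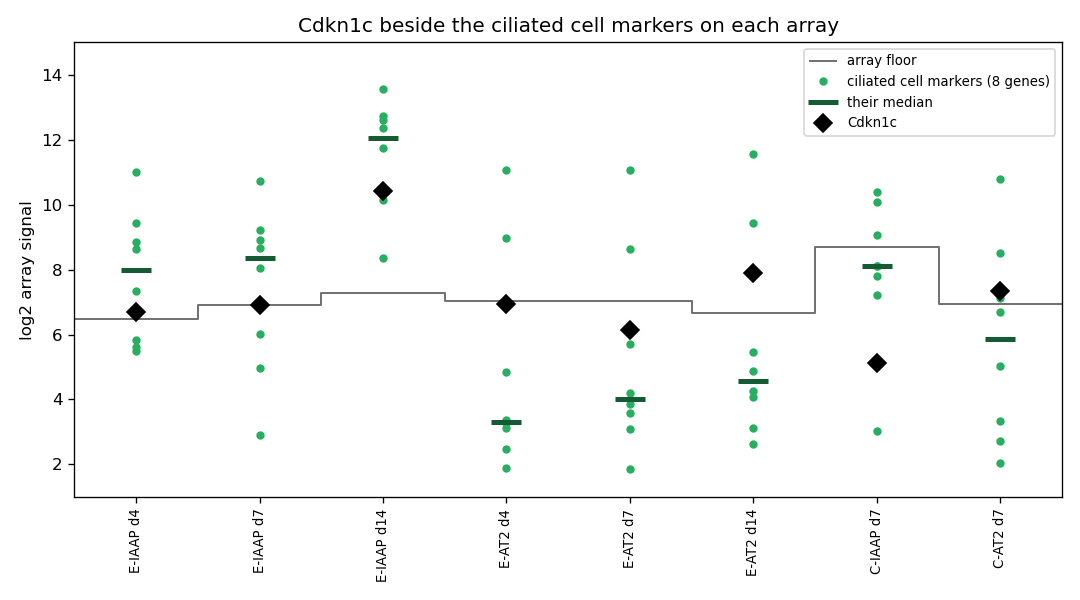
Log2 array signal of Cdkn1c (diamonds), of 8 ciliated cell markers (dots) and of their median (bars) on each array, with the floor as a grey line. Cdkn1c at 10.42 and the marker median at 12.06 are both highest in E-IAAPs on day 14.

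Among the INK4 genes, Cdkn2d (p19, an INK4 inhibitor whose level varies with the cell cycle) was clearly above the floor on every array and passed no comparison. Its single probe, 59211, read 10.21 on day 4, 10.53 on day 7 and 10.80 on day 14 in E-IAAPs, and 10.13, 11.34 and 10.39 in E-AT2s on those days, as log2 signals. C-IAAPs had 10.99 and C-AT2s 9.84. E-AT2s of day 7 were highest and C-AT2s lowest, and the E-IAAP and E-AT2 ranges overlapped. E-IAAPs averaged 10.51 ± 0.30 and E-AT2s 10.62 ± 0.63 (SD, n = 3 days each), and the log2 difference was -0.11 (95% interval -1.0 to 0.78, adjusted p = 0.921). All 3 E-AT2 arrays lay above C-AT2s (log2 difference 0.78, 95% interval -0.48 to 2.04, adjusted p = 0.943) and all 3 E-IAAP arrays lay below C-IAAPs (-0.48, 95% interval -1.74 to 0.79, adjusted p = 0.579). The interaction that tests this contrast did not pass (-1.26, standard error 0.75, adjusted p = 0.361). Each side has 1 control array, and how many of all genes show such a pattern was not counted. C-IAAPs exceeded C-AT2s by 1.15 (95% interval -0.39 to 2.70, adjusted p = 0.273). The order was C-IAAPs, E-AT2s, E-IAAPs and C-AT2s, without a passing difference between neighbours that were compared, while C-IAAPs against E-AT2s and E-IAAPs against C-AT2s were not tested.

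Cdkn2c (p18, an inhibitor of Cdk4 and Cdk6) was brightest in E-AT2s on day 7 with both probes. Probe 46901 had log2 signals of 7.74, 8.26 and 8.38 in E-IAAPs, 7.99, 9.23 and 8.28 in E-AT2s, 7.41 in C-IAAPs and 7.74 in C-AT2s. Probe 37232 read 7.02, 7.16 and 7.83 in E-IAAPs, 7.08, 8.38 and 7.77 in E-AT2s, 5.58 in C-IAAPs and 6.50 in C-AT2s. With probe 37232 all 6 experimental arrays were above both control arrays, as the used probes of 4.44% of all genes were. Both control signals of that probe lay below the floors of their arrays. With probe 46901 the E-IAAP array of day 4 was level with C-AT2s to 2 decimals. None of the differences passed. With the used probe they were -0.37 for E-IAAPs against E-AT2s (95% interval -1.21 to 0.47), 0.72 for E-IAAPs against C-IAAPs (-0.58 to 2.02), 0.75 for E-AT2s against C-AT2s (-0.55 to 2.06) and -0.33 for C-IAAPs against C-AT2s (-1.93 to 1.26). With probe 37232 the limma log2 differences from controls were 1.75 in E-IAAPs (adjusted p = 0.0811) and 1.25 in E-AT2s (adjusted p = 0.796). For E-IAAPs against C-IAAPs no fold is given with either probe. The C-IAAP signal and the E-IAAP mean both lay under the floor of the C-IAAP array, 8.68. The group means ran in the order E-AT2s, E-IAAPs, C-AT2s and C-IAAPs with both probes.

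Cdkn2b (p15, induced by TGF-beta in epithelium) lay below the floor on all 8 arrays. Probe 1564 read 5.70, 5.78 and 4.93 in E-IAAPs, 5.47, 6.56 and 6.09 in E-AT2s, 8.20 in C-IAAPs and 5.58 in C-AT2s, and probe 56021 read 3.84, 4.01 and 4.89 in E-IAAPs, 3.10, 4.91 and 5.36 in E-AT2s, 7.83 in C-IAAPs and 5.0 in C-AT2s. The C-IAAP signal was the highest with both probes but remained under the floor of its array, by 0.49 with probe 1564. It passed the limma test in 2 comparisons, at -2.73 for E-IAAPs against C-IAAPs (standard error 0.54, adjusted p = 0.0187) and at 2.61 for C-IAAPs against C-AT2s (standard error 0.66, adjusted p = 0.0452). With the day as a term neither passed (-2.32, adjusted p = 0.087, and 2.61, adjusted p = 0.0767). Probe 56021 gave -3.58 (adjusted p = 0.0359) and 2.83 (adjusted p = 0.124). Because both sides lie below the floor these log2 differences carry no fold, and they are differences of background-level signals on the array whose background was highest. The call for C-IAAPs against C-AT2s was lost without E-IAAPs of day 4 or day 7, or without E-AT2s of day 14 (adjusted p = 0.0694, 0.065 and 0.0738). E-IAAPs against E-AT2s gave -0.57 (95% interval -1.52 to 0.38), E-AT2s against C-AT2s 0.46 (-0.82 to 1.74), and the interaction -3.19 (standard error 0.77, adjusted p = 0.0658). In order of level, C-IAAPs came first, then E-AT2s, C-AT2s and E-IAAPs.

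Cdkn2a, whose locus gives rise to p16 and, from another first exon, to the p53 activator Arf, was the farthest below the floor. Probe 6659 read 4.06, 3.82 and 3.55 in E-IAAPs, 2.69, 3.12 and 3.04 in E-AT2s, 4.01 in C-IAAPs and 2.69 in C-AT2s. Probe 23519 read 2.57, 2.47 and 1.94 in E-IAAPs, 3.37, 1.68 and 2.50 in E-AT2s, 2.36 in C-IAAPs and 2.20 in C-AT2s. With probe 6659 every IAAP array was above every AT2 array, a separation seen for 4.91% of all genes, whereas with probe 23519 the populations overlapped. E-IAAPs exceeded E-AT2s by 0.86 (adjusted p = 0.394) with probe 6659 and by -0.19 (adjusted p = 0.877) with probe 23519. C-IAAPs against C-AT2s gave 1.32 (adjusted p = 0.102) and 0.16 (adjusted p = 0.92). At 2.40 to 4.67 under the floor, the signals of probe 6659 do not show whether the gene was expressed. Which of the products each probe reads is not given by the tables. Cdkn2a and Cdkn2b are neighbours on chromosome 4, with 11669 bases between them on GRCm38.p6. Mtap, a methionine salvage enzyme encoded on the other side of Cdkn2a, had log2 signals of 6.58 to 7.12 in E-IAAPs, 7.05 to 7.59 in E-AT2s, 7.26 in C-IAAPs and 6.88 in C-AT2s and passed no comparison.

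Counted over the 7 genes, 0 passed for E-IAAPs against E-AT2s by limma, where 1.31% of all genes did, and 2 members had an unadjusted p under 0.05, Cdkn1a and Cdkn2a. For E-IAAPs against C-IAAPs 2 of 7 passed, Cdkn1b and Cdkn2b, both lower, against 17.1% of all genes in either direction and 7.75% lower. For C-IAAPs against C-AT2s 1 of 7 passed, Cdkn2b, which was higher, against 13.9% of all genes in either direction and 6.11% higher. For E-AT2s against C-AT2s 0 of 7 passed by limma and 0.0% of all genes did, with 1609 genes but no member at an unadjusted p under 0.05. The interaction was passed by 0 of 7, against 4.37% of all genes, with Cdkn1a, Cdkn1b and Cdkn2b at an unadjusted p under 0.05. With so few members, counts of 1 or 2 do not set them apart from other genes. Comparisons with C-IAAPs share that array, so the 2 calls of Cdkn2b are not independent of each other. Days stand in for replicates in these tests, and each control array is assumed to vary as the experimental groups do across days.

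**Figure D4:**
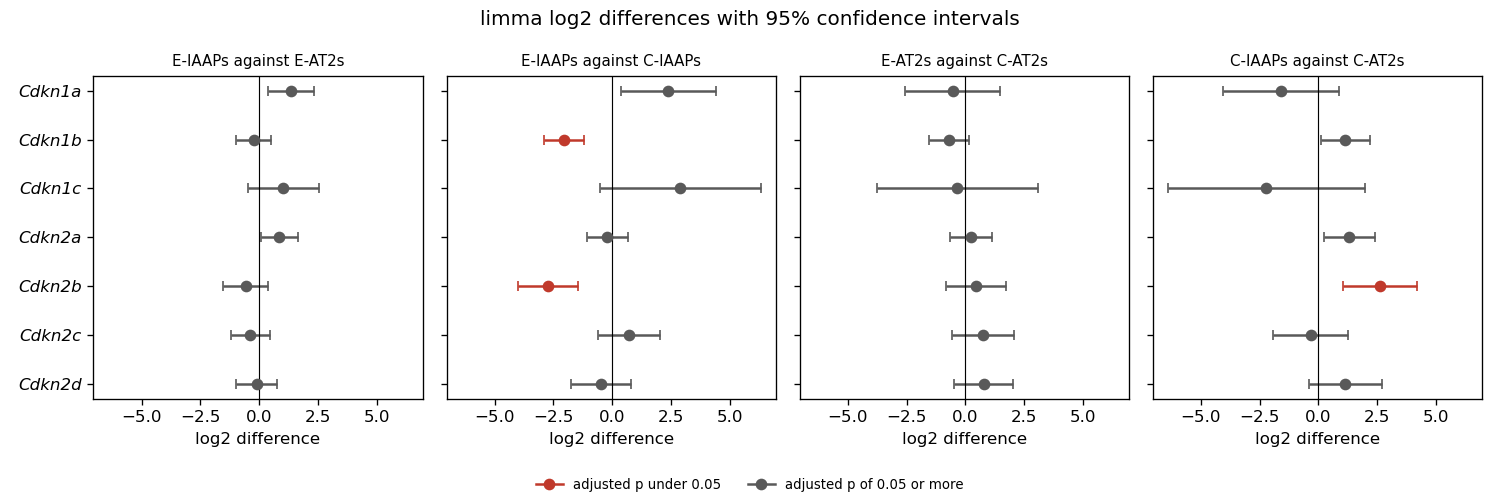
limma log2 differences of the 7 genes (points) with 95% confidence intervals (bars) in 4 comparisons, in red where the adjusted p is under 0.05. Cdkn1b and Cdkn2b pass for E-IAAPs against C-IAAPs, and Cdkn2b for C-IAAPs against C-AT2s.

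Of 10 measured cyclins and cyclin-dependent kinases, the D- and E-type cyclins, Cdk2, Cdk4 and Cdk6 with Ccna2 and Cdk1 of later phases, 0 passed any of the 5 comparisons between groups in limma, and 0 to 2 of them in each had an unadjusted p under 0.05. The list median for E-IAAPs against C-IAAPs was 0.35, beside -0.10 over all genes. Ccnd1, the D-type cyclin partner of Cdk4, had log2 signals of 11.11 to 11.41 in E-IAAPs, 11.29 to 11.50 in E-AT2s, 10.79 in C-IAAPs and 10.52 in C-AT2s. Cdk4 itself spanned only 10.83 to 11.19 over the 8 arrays. Of 15 pocket proteins and E2F factors, E2f3 was higher and E2f8 lower in E-IAAPs than in C-IAAPs, and both lay below the floor in the groups compared. Tfdp1, the dimer partner of E2F factors, had 11.07 to 11.66 in E-IAAPs and 11.85 in C-IAAPs (log2 difference -0.45, adjusted p = 0.532).

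Of 22 genes of S, G2 and M phase, 3 passed as higher in E-IAAPs than in C-IAAPs, beside 9.35% of all genes, and 0 as lower. They were Mcm2 and Mcm6, subunits of the replicative helicase, and Rrm1, a subunit of ribonucleotide reductase. In this comparison 17 of the 22 were above 0. The list median was 1.47, and for Mcm2 the E-IAAP mean was under the floor of the C-IAAP array, so it has no fold. Mcm6 had log2 signals of 11.40, 11.94 and 11.84 in E-IAAPs and 9.17 in C-IAAPs, a 5.89-fold difference (log2 2.56, standard error 0.49, adjusted p = 0.0166). Rrm1 was at least 3.34-fold higher in E-IAAPs, counted from the floor of the C-IAAP array (adjusted p = 0.0091). In E-AT2s against C-AT2s 21 of 22 were above 0 with a median of 1.53, beside 0.01 over all genes, yet 0 passed limma's test after adjustment and 6 had an unadjusted p under 0.05. Mki67, a marker of cycling cells, had 10.89 to 11.64 in E-IAAPs, 8.95 to 12.35 in E-AT2s, 9.62 in C-IAAPs and 6.45 in C-AT2s.

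Upstream of p21, 22 p53 pathway genes were measured. Pmaip1, the apoptosis gene Noxa, was the 1 gene of them that passed for E-IAAPs against E-AT2s, at least 2.00-fold higher (adjusted p = 0.0332), with a list median of 0.14 beside -0.05 over all genes. For E-IAAPs against C-IAAPs Bbc3, the apoptosis gene Puma, rose at least 2.49-fold and Sesn1, a stress-responsive inhibitor of mTORC1 signaling, was 3.56-fold lower (adjusted p = 0.0246 and 0.0291). For C-IAAPs against C-AT2s Bbc3 was lower, and Phlda3, a repressor of Akt, passed as higher with both groups below the floor. Mdm2, the ubiquitin ligase that p53 induces and that destroys it, had 9.60 to 10.35 in E-IAAPs, 9.34 to 9.97 in E-AT2s, 8.50 in C-IAAPs and 9.47 in C-AT2s and passed nowhere. Among 11 measured genes of p27 destruction and FoxO control, Akt1, a kinase that keeps FoxO factors and p27 in check, passed as higher in E-IAAPs than in C-IAAPs (adjusted p = 0.0094), but the C-IAAP signal of 6.05 and the E-IAAP mean of 8.53 both lay under the floor of the C-IAAP array, so no size is given. Foxo4 passed as lower with both groups below the floor. Skp2, the F-box protein that marks p27 for destruction, had 6.85 to 7.34 in E-IAAPs, 6.13 to 7.12 in E-AT2s, 6.28 in C-IAAPs and 5.81 in C-AT2s (E-IAAPs against C-IAAPs 0.87, adjusted p = 0.241).

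For the Cdkn2a and Cdkn2b locus, 13 polycomb genes were measured, whose products keep it silent. Ezh2, the histone H3 methyltransferase of polycomb complex PRC2, had log2 signals of 10.15, 9.77 and 10.81 in E-IAAPs, 9.42, 10.48 and 9.98 in E-AT2s, 4.01 in C-IAAPs and 8.48 in C-AT2s. It was at least 2.94-fold higher in E-IAAPs than in C-IAAPs (adjusted p = 0.0021). Ring1, a ubiquitin ligase of PRC1, and Eed, a PRC2 subunit, also passed as higher in E-IAAPs than in C-IAAPs. That makes 3 of 13, beside 9.35% of all genes. Of the 13, 9 were above 0 and 0 passed as lower. Ring1 has no fold, since its E-IAAP mean of 7.59 was under the floor of the C-IAAP array. Ezh2, Ring1 and Cbx2, another PRC1 subunit, passed as lower in C-IAAPs than in C-AT2s, beside 7.77% of all genes, and their C-IAAP signals lay below the floor. Their C-AT2 signals also lay under the floor of the C-IAAP array, and that of Cbx2 under the C-AT2 floor too, so no fold is given. With so few genes in each list, these counts do not set a list apart from other genes. In the list for TGF-beta, upstream of p15, Tgfb2, one of its ligands, read 9.59 in C-IAAPs, on an array whose floor was 8.68. By limma it was lower in E-IAAPs than in C-IAAPs (adjusted p = 0.0025) and higher in C-IAAPs than in C-AT2s (adjusted p = 0.0071). Counted from the floors of the E-IAAP and C-AT2 arrays, these were at least 6.50-fold and 6.28-fold. Those floors were lower than that of the C-IAAP array, and the part of its background in these folds was not tested. Zbtb17, the Miz-1 activator of Cdkn2b, passed as higher in E-IAAPs than in C-IAAPs (adjusted p = 0.0451) with the C-IAAP signal below the floor and no fold. Of the 12 measured genes of that list, 1 passed as higher and 1 as lower in E-IAAPs than in C-IAAPs. All of these calls involve the C-IAAP array.

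The genes closest in pattern were found for the 5 members above the floor on at least 4 arrays, as Pearson's r over the 8 arrays among 10510 genes above the floor on at least 4. For Cdkn1b they were Gm6637 (r = 0.994), Adpgk (0.987) and Phf6 (0.984), for Cdkn1a Zscan22 (0.945), Faim (0.933) and Ncl (0.923), and for Cdkn1c Suclg2 (0.960), Dynlrb2 (0.945) and Slc35e3 (0.939). Dynlrb2, a dynein light chain, is 1 of the ciliated cell markers. For Cdkn2c they were Rad21 (0.981), Snrpg (0.963) and Rbbp7 (0.941), and for Cdkn2d Zfp367 (0.977), Sypl (0.950) and Gm31704 (0.935). With 8 arrays that share populations, genotypes and the outlying C-IAAP array, such values are a description of shape and were chosen as the highest of many.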

How the data were processed

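Per the labels and the methods, RNA of sorted cells was turned into amplified cDNA, given a Cy5 label and run on 1-colour Agilent mouse arrays, 1 for each of 8 samples. The authors took log2 spot signals, background-corrected them with the NormExp procedure on negative control spots and quantile-normalized them in limma. These deposited log2 values were used as they are. Probes were named by accession (33708), current symbol (9763) or synonym (463), 7 kept the platform's name and 19035 had no symbol. For each of 24306 genes the probe with the highest mean was used. limma 3.58.1 (R 4.3.3) compared E-IAAPs with E-AT2s and day 14 with day 4 on the 6 experimental arrays, with day and population in the model, and made the other comparisons on all 8 arrays in 4 groups without a day term. P-values were adjusted over all genes (Benjamini-Hochberg, threshold 0.05), and the fits were tested on simulated data. No gene list was tested as a set. A fold with one side below the floor (95th percentile of 1415 sensory receptor genes, with 0.5 above it counted as near) is a lower bound from that floor. Alternatives were other scalings and floors, the mean of all probes, each other probe, a filter on low values, a trended prior, other day terms and leaving out each array. All probes of the 7 genes are named, in each pathway list mainly the brightest genes and those that passed where 5 or fewer did, and Mdm2, Skp2, Mki67 and Fgfr2 were added for their roles after their values had been seen. The members, lists and floor were chosen with earlier results of these data known. The number of arrays limits the precision. With 1 biological replicate a group, p-values of the fits in 4 groups measure only the spread between days. In the fits on the 6 experimental arrays they measure only how far the difference between populations varies from day to day. Other steps ran in Python 3.11.15 with pandas 2.3.3 and numpy 2.4.6.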

Additional observations from a re-analysis of the deposited data

How the results depend on the processing

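Of 491 alternatives for single members, 454 kept direction and side of the threshold. Members passing for E-IAAPs against C-IAAPs numbered 1 in place of 2 when only genes above the floor on 3 or more arrays were fitted, which leaves Cdkn2a and Cdkn2b out, and 0 with the day as a term. For C-IAAPs against C-AT2s the 1 member became 0 after centring on the median, with the mean of all probes and with the day as a term, and 0 to 1 with 1 array left out. For experimental against control cells over both populations the 1 member became 0 with the mean of all probes and with the day as a term, and 0 with any 1 experimental array left out. At the 99th percentile, 0 members in place of 2 lay above the floor on all arrays.

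Signs turned mostly with the probe or with values near 0. Probe 25335 of Cdkn1a gave -2.20 for E-IAAPs against C-IAAPs, -2.32 for experimental against control cells and 0.61 between the control populations. Probe 61075 gave 2.38 for C-IAAPs against C-AT2s, 1.92 for E-AT2s against C-AT2s and -1.64 for the interaction. The mean of the Cdkn1a probes gave -0.10 for experimental against control cells and 0.47 between the control populations, and a day term gave 0.32 for E-AT2s against C-AT2s. Probe 7407 of Cdkn1b gave -0.49 for C-IAAPs against C-AT2s, and probe 23519 of Cdkn2a -0.19 for E-IAAPs against E-AT2s. Cdkn2b for E-AT2s against C-AT2s was -0.041 with the mean of probes and -0.54 with probe 56021, and Cdkn2a was -0.024 there when arrays were centred on genes used by every cell. With 1 array left out, Cdkn2d gave -0.36 to 0.24 for E-IAAPs against E-AT2s, turning without day 7, and Cdkn1c gave -0.80 to 0.088 for E-AT2s against C-AT2s, turning without E-AT2s of day 7. Where no value bears on it, the cause was not tested.

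Centring on genes used by every cell moved the median of all genes for E-IAAPs against C-IAAPs to -0.49, in place of -0.10, and the calls to 1637 higher and 3549 lower in place of 2273 and 1884. Cdkn1b was -2.45 there (adjusted p = 0.0101) and stayed lower under all 14 alternatives of the used probe or the mean of probes, at -2.45 to -1.48 (adjusted p = 0.00286 to 0.0757). Each of these alternatives keeps the single C-IAAP array, so they do not show how far the difference rests on it. With the centring on genes used by every cell, calls for experimental against control cells were 544 higher and 1497 lower in place of 960 and 577. Those of C-IAAPs against C-AT2s were 1759 higher and 1518 lower in place of 1485 and 1889. The day as a term lowered the 4157 genes passing for E-IAAPs against C-IAAPs to 1407, the 3374 in the comparison of the controls to 1640, and the 1062 of the interaction and the 1537 of experimental against control cells to 0. The 318 genes of E-IAAPs against E-AT2s were 547 with a trended prior and 0 without any 1 array, a fit with 1 residual degree of freedom. That comparison is paired by day, and without the day as a block 483 genes and 0 members passed. By replicate number no paired analysis was possible because every sample carries the same number. The floor limits what can be said of Cdkn2a and Cdkn2b throughout, of Cdkn1a and Cdkn1c on most arrays, and of any gene on the C-IAAP array.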
